A study of Mus musculus with 6 samples.

Results

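The ERK feedback genes examined here are 4 dual-specificity phosphatases (Dusp1, Dusp4, Dusp5 and Dusp6), 3 Sprouty genes (Spry1, Spry2 and Spry4) and 2 Spred genes (Spred1 and Spred2). They were chosen by name, as all probes whose symbol in the platform annotation was one of these 9. Of the 9 genes 8 had such a probe, 15 probes in all out of 34885 probes with 1 gene symbol, and no probe carried the symbol Spry1. RNA levels were read from 6 BeadArrays of the type Mouse WG-6 v2.0 (Illumina). The labels name 3 of them female germline stem cells (FGSC), which came from the ovary of 3 days old CD1 mice, and the other 3 spermatogonial stem cells (SSC), which came from the testis of 6 days old CD1 mice. The labels give no transgene, treatment or genotype for either group, and the enrichment of the cells is not described here. Since organ, sex and age all change between the groups, their effects cannot be told apart. The labels do not say whether the 3 arrays of a group came from separate animals or isolations, so p-values reflect the spread of these samples alone, and it may be technical.

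Growth factor receptors such as those for GDNF, FGF and KIT ligand switch on Ras, which activates the kinases RAF, MEK and ERK in turn. Active ERK induces genes that dampen its own cascade. The DUSP proteins described here remove phosphates from MAP kinases, Sprouty proteins act between the receptor and RAF, and Spred proteins inhibit Ras signalling by recruiting neurofibromin, a protein that returns Ras to its inactive form. In the testis, GDNF acts through RET on spermatogonial stem cells, and in the ovary KIT ligand acts through KIT on oocytes.

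The arrays detected 16198 to 17231 probes in FGSC and 18574 to 18823 in SSC at a detection p-value under 0.05, which compares a probe with the negative controls of its array. FGSC replicate 3 stood apart, with a 95th percentile of raw signals of 403, against 551 and 577 on the other FGSC arrays and 464 to 572 on the SSC arrays, so the differences of the members are also given without it. Labelled cell types were set against marker lists. Of 13 oocyte markers 12 were detected on all FGSC arrays and 5 on all SSC arrays, and their summed normalized signal was 42571 to 44907 in FGSC and 2532 to 2901 in SSC. In SSC Sohlh1 alone made up 87% of this sum, while the leading gene in FGSC, Nlrp5, made up 28.1%. Among the marker probes, 2 of the oocyte list and 2 of the Sertoli list were irregular, as defined with the processing. Of 12 spermatogonial markers 6 were detected on all FGSC arrays and 10 on all SSC arrays. Gfra1, the GDNF co-receptor that marks spermatogonial stem cells, was undetected on all 6 arrays. The summed signal of this list was 5454 to 7922 in FGSC and 4076 to 4399 in SSC, and Uchl1 made up 88.8% of it in FGSC and 36.2% in SSC. The summed signal of 7 peritubular and smooth muscle markers was 352 to 380 in FGSC and 2722 to 2929 in SSC. Mylk alone made up 84.6% of it in SSC. Mylk and Myh11 differed by -4.95 and -1.33 (FGSC minus SSC, log2). Acta2, Tagln, Des and Actg2 differed by 0.08, -0.24, -0.29 and -0.49. For 6 Leydig and theca markers the sum was 158 to 162 in FGSC and 360 to 408 in SSC, where Cyp17a1 made up 44.1%. For 7 Sertoli markers it was 232 to 297 in FGSC and 785 to 828 in SSC, where Amh made up 45.5%. Of the Sertoli list, Sox9 and Rhox5 were higher in FGSC, at 0.52 and 0.24. Amh, Gata4, Dhh, Cldn11 and Fshr differed by -3.80, -0.83, -1.77, -1.22 and -2.22. For 7 endothelial markers the sum was 207 to 214 in FGSC and 365 to 391 in SSC. For 7 granulosa markers it was 316 to 392 in FGSC and 583 to 671 in SSC. Of the granulosa list, Wnt4 was higher in FGSC, at 0.93. Amhr2, Fst, Inha, Inhba and Fshr differed by -0.30, -0.51, -0.61, -1.83 and -2.22. For 5 macrophage and blood markers the sum was 878 to 1118 in FGSC and 2020 to 2098 in SSC. The haemoglobin gene Hba-a1 made up 87.1% of the last sum in FGSC and 93.8% in SSC, while Csf1r and Lyz2 differed by -0.10 and 0.04. Among FGSC arrays all 6 Leydig and theca markers were undetected on every array, as were Cnn1, Tagln, Amh, Gata4, Dhh, Fshr, Cdh5, Emcn, Eng and Adgre1. Among the markers of these other cell types, those undetected on every SSC array were Hsd3b1, Cnn1, Ptprc and Adgre1. The part of such other cells in the differences below was not tested, and in these bulk samples fewer cells of a type and less RNA per cell cannot be told apart.

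Below, a level is the mean log2 signal of 3 arrays after background correction and quantile normalization, given with its SD, and a difference is FGSC minus SSC in the same log2 units, given with its standard error (SE) from limma. Genes or probes with an adjusted p under 0.05 were called. Differences and p-values of single probes come from the fit over all 16159 probes kept, and those of genes from the fit over all 10628 genes, each gene read from its brightest kept probe. Probes differ in brightness for the same RNA, so sums over marker probes and shares of them are descriptions of signal and not of transcript amounts.

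The negative feedback genes did not move together between the populations. Dusp6 and Dusp5 were lower in FGSC, by 19.3-fold and 2.75-fold, Spry4 was detected in SSC alone, and Dusp4 was 1.57-fold higher in FGSC. The call of Dusp4 was lost when median scaling replaced quantile normalization. Dusp1, Spred1 and Spred2 were detected on every array and were not called, and Spry2 was undetected on every array. Of the 7 member genes tested 4 were called (57.1%), against 62.4% of all 10628 genes, so that share is near the background. In FGSC 1 of the 7 was higher (14.3%) and 3 were lower (42.9%), against 30.9% and 31.5% of all genes. Of the 15 probes 12 were kept, meaning detected on at least 3 of the 6 arrays, and 8 of those 12 were called (66.7%), against 59.3% of all 16159 probes. Of these 12, 3 were higher (25%) and 5 lower (41.7%) in FGSC, against 30.1% and 29.3% of all probes. The FGSC and SSC values did not overlap for 4 of the 7 genes, against 70.9% of all genes, and for 7 of the 12 probes, against 68.9% of all probes. The probe of Spry4 and 2 of the 3 probes of Dusp6 were kept through the SSC arrays alone, so these probes had to be brighter in SSC, and the counts are a description only.

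**Figure D1:**
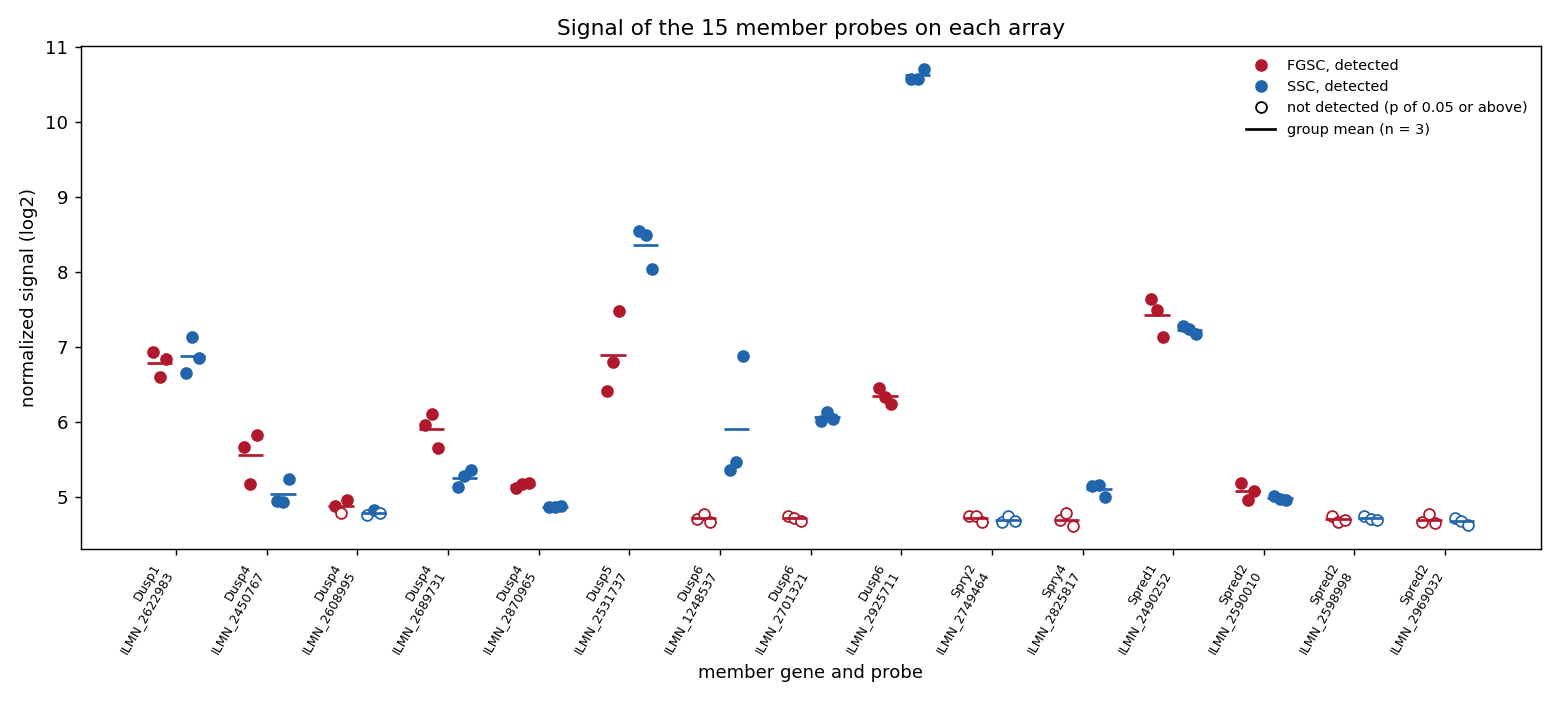
Normalized log2 signal of the 15 member probes (x axis, gene and probe) on each array (y axis), FGSC in red left of SSC in blue, with open circles for arrays where the probe was not detected and lines for the means of 3 arrays. Dusp6 probe ILMN_2925711 shows the widest gap, with levels of 6.35 in FGSC and 10.62 in SSC, while the points of Dusp1 overlap between the groups.

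Dusp6 encodes a cytoplasmic phosphatase that is specific for ERK, and its transcript is widely used as a readout of ERK activity. Its brightest probe, ILMN_2925711, gave raw signals of 180.0, 164.0 and 135.0 in FGSC replicates 1 to 3, against 1775.1, 1466.6 and 1491.2 in SSC replicates 1 to 3. All FGSC arrays lay far below all SSC arrays, and the probe was detected on all 6. The level was 6.35 ± 0.11 in FGSC and 10.62 ± 0.07 in SSC (SD, n = 3 each), a difference of -4.27 ± 0.09 (95% interval -4.48 to -4.06, limma adjusted p = 6.77e-07). Among the 10628 genes, it was the 23rd largest fall, and 0.489% of genes differed by at least as much in either direction. Without FGSC replicate 3 the difference was -4.22. The authors' processed values of this probe were 93.9, 86.4 and 81.7 in FGSC, against 1546, 1552 and 1694 in SSC.

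The other probes of Dusp6 were detected on the SSC arrays alone and were kept through them, so their direction was fixed by the filter and adds no support to the difference above. Probe ILMN_2701321 gave raw signals of 98.0, 94.3 and 90.5 in FGSC, against 162.7, 152.2 and 147.9 in SSC. It was detected on every SSC array and on no FGSC array, where it had only a bound, so it was at least 2.3-fold lower in FGSC (limma adjusted p = 1.34e-05). Here a bound sets each undetected array to the lowest signal of a detected probe on that array where the probe itself lay below it. Probe ILMN_1248537 gave 95.8, 96.5 and 89.5 in FGSC, all undetected, against 130.3, 124.8 and 194.9 in SSC. Its SSC values were uneven, with replicate 3 well above the other arrays and an SD of 0.85 on the log2 scale, against 0.06 for ILMN_2701321. It was at least 2.05-fold lower in FGSC (limma adjusted p = 0.0377). The fitted difference of ILMN_1248537 was -1.19 with all arrays and -0.69 without SSC replicate 3 (adjusted p = 0.00151), and its adjusted p was 0.0861, 0.087 and 0.0654 without FGSC replicates 1, 2 and 3 and 0.0964 with no detection filter. With the mean of the 3 kept probes, these included, in place of the brightest, Dusp6 differed by -2.27 (adjusted p = 3.02e-05).

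Dusp5 encodes a nuclear phosphatase that is specific for ERK. Its probe, ILMN_2531737, gave raw signals of 176.6, 199.2 and 219.1 in FGSC, against 524.0, 425.1 and 328.9 in SSC. All 6 arrays detected it and the groups did not overlap, although the spread was wide, with FGSC replicate 3 the closest to SSC and SSC replicate 3 the closest to FGSC. The level was 6.90 ± 0.53 in FGSC and 8.36 ± 0.27 in SSC (SD, n = 3 each), a difference of -1.46 ± 0.28 (95% interval -2.13 to -0.79, limma adjusted p = 0.00414). Of all genes, 14.7% differed by at least as much in either direction. Without FGSC replicate 3 the difference was -1.75.

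Dusp4 encodes a nuclear phosphatase of ERK and other MAP kinases. Its 4 probes were all kept, and in each the mean was higher in FGSC. The brightest, ILMN_2689731, gave raw signals of 147.5, 150.5 and 115.5 in FGSC, against 120.1, 117.7 and 121.7 in SSC. FGSC replicate 3 lay below the SSC arrays in raw signal but above them after normalization, where its log2 value was 5.66, against 5.14 to 5.36 in SSC. The difference was 0.65 ± 0.13 (limma adjusted p = 0.00562), and 0.77 without FGSC replicate 3. Of all genes, 42.5% differed by at least as much as 0.65 in either direction. Probe ILMN_2870965 differed by 0.29 ± 0.07 (adjusted p = 0.00901), with normalized log2 values of 5.13, 5.18 and 5.19 in FGSC, against 4.87, 4.88 and 4.89 in SSC. Both probes kept their groups apart, but the second differed by little and lay close to background.

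The remaining Dusp4 probes gave less certain values. Probe ILMN_2450767 gave normalized log2 values of 5.67, 5.18 and 5.83 in FGSC, against 4.96, 4.94 and 5.24 in SSC. Its groups overlapped, since FGSC replicate 2 lay below SSC replicate 3, and it was called at the edge of the threshold with a difference of 0.51 ± 0.18 (limma adjusted p = 0.0476). The call was lost without FGSC replicate 1 or 3 or SSC replicate 1 or 2 (adjusted p = 0.124, 0.0962, 0.129 and 0.134). An offset of 50, no background correction, no detection filter or array weights also removed it (adjusted p = 0.0665, 0.0545, 0.103 and 0.114). Probe ILMN_2608995 was detected on 2 FGSC arrays and 1 SSC array and differed by 0.08 ± 0.08, which was not called (adjusted p = 0.393). With median scaling in place of quantile normalization, the difference of the brightest Dusp4 probe was 0.41 and no Dusp4 probe was called, while the median of all genes was -0.12.

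Dusp1 encodes a nuclear phosphatase that acts on p38 and JNK as well as ERK and is an immediate early gene. Its probe, ILMN_2622983, gave raw signals of 217.9, 181.9 and 167.0 in FGSC, against 205.4, 219.1 and 192.4 in SSC. The groups overlapped and the probe was detected on all 6 arrays. The level was 6.79 ± 0.18 in FGSC and 6.89 ± 0.24 in SSC (SD, n = 3 each), and the difference of -0.09 ± 0.15 was not called (limma adjusted p = 0.613). Its 95% interval was -0.46 to 0.27, so a smaller difference in either direction was not resolved with 3 arrays a group. Without FGSC replicate 3 the difference was -0.12.

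**Figure D2:**
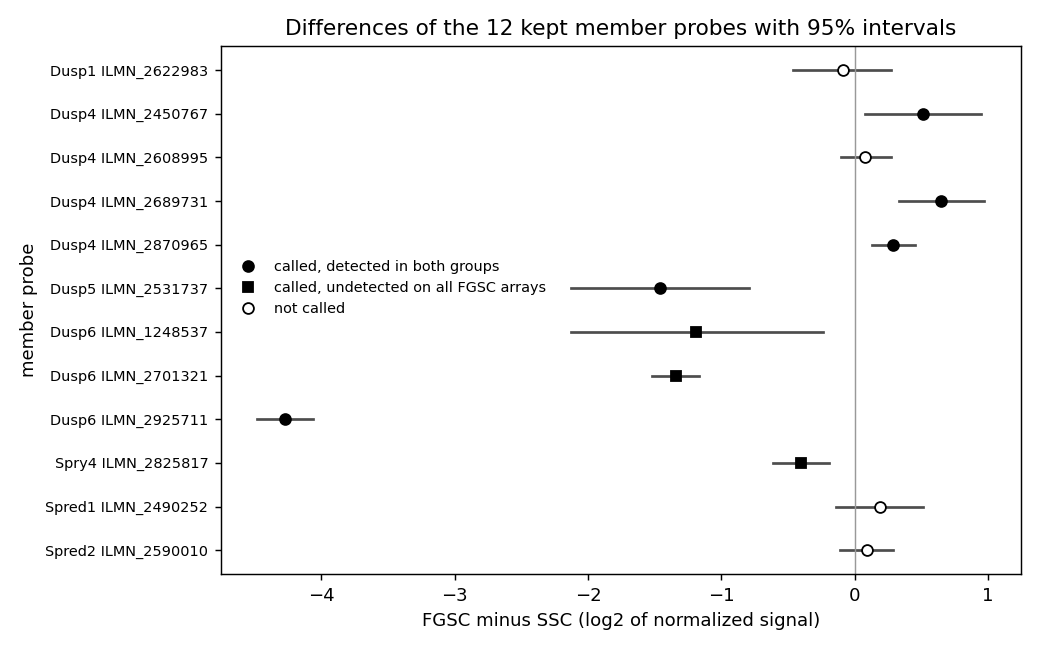
FGSC minus SSC differences (x axis, log2) of the 12 kept member probes (y axis) with 95% intervals from the limma fit; filled symbols were called, squares were undetected on all FGSC arrays, and open circles were not called. The 5 probes called lower belong to Dusp5, Dusp6 and Spry4, from -0.40 to -4.27, and the 3 probes called higher belong to Dusp4.

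The promoters of Dusp6 and Dusp5, which were both lower in FGSC, are shown with that of Dusp1, which was not called, because the DNA before each start carries known kinds of response element. The sequences are the 250 bases before the gene's start in RefSeq on GRCm38.p6. Windows of 7 of the 9 genes were searched, and those of Dusp4 and Spry4 were not. Capitals mark the core of the cAMP response element (TGACGT), the CArG box bound by serum response factor, and an ETS site (CGGAAG), each searched on both strands, and overlapping matches run together. These motifs were chosen after the sequences were seen.
Dusp6, chr10:99262981-99263230, plus strand: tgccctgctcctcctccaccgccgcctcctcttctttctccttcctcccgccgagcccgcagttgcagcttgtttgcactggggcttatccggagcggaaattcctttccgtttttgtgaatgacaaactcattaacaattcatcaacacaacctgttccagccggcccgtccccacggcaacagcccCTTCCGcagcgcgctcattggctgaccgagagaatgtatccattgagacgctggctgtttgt
Dusp5, chr19:53528895-53529144, plus strand: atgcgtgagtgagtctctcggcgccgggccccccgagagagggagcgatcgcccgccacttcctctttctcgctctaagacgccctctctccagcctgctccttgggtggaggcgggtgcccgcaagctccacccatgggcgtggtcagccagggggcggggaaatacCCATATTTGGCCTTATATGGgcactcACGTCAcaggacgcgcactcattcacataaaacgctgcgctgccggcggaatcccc
Dusp1, chr17:26508473-26508722, minus strand: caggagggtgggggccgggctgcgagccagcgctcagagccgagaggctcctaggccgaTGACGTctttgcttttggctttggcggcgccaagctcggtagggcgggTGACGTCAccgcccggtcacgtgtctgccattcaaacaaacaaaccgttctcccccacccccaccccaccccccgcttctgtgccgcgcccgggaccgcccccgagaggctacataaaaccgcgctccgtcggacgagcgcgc
The Dusp5 window held 2 CArG boxes side by side, starting 82 and 72 bases before the start, and 1 cAMP response core. Of 32851 such windows 1.47% held a CArG box and 6 (0.0183%) held at least 2. The Dusp1 window held 3 matches of the cAMP response core, of which 2 overlap on opposite strands, a motif found in 6.47% of windows. The Dusp6 window held 1 ETS site, as did those of Spred1 and Spred2, and 13.6% of all windows held it. The Spred2 window also held 1 cAMP response core. The windows of Spry1 and Spry2 held none of these motifs. A match is a run of letters and not a measured site, and factors can bind outside these windows.

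Spry4 encodes an inhibitor of receptor tyrosine kinase signalling to ERK. Its probe, ILMN_2825817, gave raw signals of 94.7, 97.6 and 86.4 in FGSC, against 120.4, 113.4 and 107.9 in SSC. It was detected on all SSC arrays, with detection p-values of 0.00214 or less, and on no FGSC array, where they were 0.568, 0.13 and 0.929. The level was 4.71 ± 0.09 in FGSC and 5.11 ± 0.08 in SSC (SD, n = 3 each), a fitted difference of -0.40 ± 0.09 (limma adjusted p = 0.00673). As a bound, Spry4 was at least 1.18-fold lower in FGSC. The probe was kept through the SSC arrays alone, so its direction was fixed by the filter and its call is a description only. The SSC signals lay just above background, so the size of the difference was poorly determined, and it was -1.12 in the authors' processed values. Without FGSC replicate 3 it was -0.36. Of all genes, 58.4% differed by at least as much as the fitted -0.40 in either direction.

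Spry2 encodes another receptor-level inhibitor of the cascade. Its probe, ILMN_2749464, gave raw signals of 97.7, 95.6 and 89.9 in FGSC, against 92.9, 94.7 and 91.6 in SSC. No array detected it, at detection p-values of 0.247 to 0.653, and every signal lay below the median of its own array (94.1 to 98.6). It was not kept, so no difference or fold is given.

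Spred1 and Spred2 encode membrane-bound inhibitors of Ras signalling. The Spred1 probe, ILMN_2490252, gave raw signals of 302.3, 274.5 and 188.2 in FGSC, against 266.7, 228.5 and 219.9 in SSC. FGSC replicate 3 was the lowest of all 6 arrays and the other FGSC arrays were the highest, so the groups overlapped. The level was 7.42 ± 0.26 in FGSC and 7.24 ± 0.05 in SSC (SD, n = 3 each), and the difference of 0.19 ± 0.14 (95% interval -0.14 to 0.51) was not called (limma adjusted p = 0.273). Without FGSC replicate 3 the difference was 0.33 and it was called (adjusted p = 0.0136).

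Of 3 Spred2 probes 1 was detected. Probe ILMN_2590010 gave raw signals of 115.1, 104.2 and 102.5 in FGSC, against 113.9, 106.2 and 106.2 in SSC, and was detected on all 6 arrays. The groups overlapped at a level near background, and the difference of 0.09 ± 0.08 (95% interval -0.11 to 0.29) was not called (limma adjusted p = 0.375) and was 0.09 without FGSC replicate 3 and -0.06 with median scaling. The other Spred2 probes, ILMN_2598998 and ILMN_2969032, were undetected on every array, with raw signals of 90.7 to 98.3 and 88.8 to 96.6 in FGSC, against 92.0 to 97.9 and 87.9 to 95.8 in SSC.

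**Figure D3:**
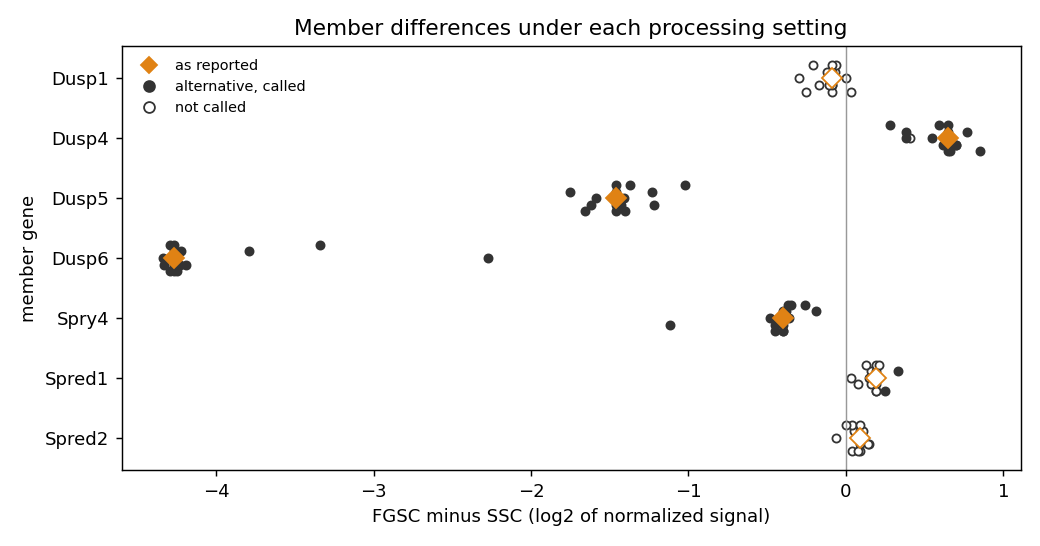
FGSC minus SSC difference (x axis, log2) of each tested member gene (y axis) as reported (diamonds) and under each alternative (circles), filled where called. Dusp6 stays at or below -2.27 and Dusp5 at or below -1.02, while Dusp1 spans -0.30 to 0.03, Spred1 0.03 to 0.33 and Spred2 -0.06 to 0.15.

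Other genes of the same families went both ways. Of 6 further MAP kinase phosphatases 5 were tested, of which 1 was higher and 2 were lower in FGSC. Of all genes 30.9% were higher and 31.5% lower, so calls in both directions were common. The counts of this and the later lists are a description only. Dusp16, which acts on JNK and p38, differed by 1.52 ± 0.11 (limma adjusted p = 4.52e-05), and a second probe by 1.61, while another was not called at 0.19. Dusp7, a cytoplasmic ERK phosphatase related to Dusp6, differed by -0.69 ± 0.09 (adjusted p = 0.000505), and Dusp2, a nuclear phosphatase, by -0.48 ± 0.12 (adjusted p = 0.011), although a second Dusp2 probe was not called at -0.16. Dusp8 (-0.16 ± 0.12, with 0.12 at a second probe) and Dusp10 (0.21 ± 0.09) were not called. With array weights both were called, Dusp8 lower and Dusp10 higher, as was Dusp8 without FGSC replicate 3 and Dusp10 without FGSC replicate 1. Of 7 relatives and partners of Sprouty and Spred 5 were tested, 3 higher and 1 lower in FGSC, beside the same 30.9% and 31.5% of all genes. Nf1, which encodes the neurofibromin that Spred proteins recruit, differed by 0.74 ± 0.07 (adjusted p = 0.000171), with 0.25 at a second probe that was also called, and was detected on 2 of the 3 SSC arrays. Il17rd, which encodes the FGF pathway inhibitor SEF, differed by 0.46 ± 0.11 (adjusted p = 0.00822), while its second probe gave 0.03, and Rasa1, a Ras GTPase-activating protein, differed by 0.33 ± 0.10 (adjusted p = 0.026). Cbl, a ubiquitin ligase that Sprouty proteins bind, was undetected on every FGSC array and at least 1.18-fold lower there (adjusted p = 0.0186). Its probe was kept through the SSC arrays alone, so the direction was fixed by the filter and its call is a description only. Tesk1, a kinase that binds Sprouty proteins, was not called (0.26 ± 0.38). With median scaling Nf1 was the 1 gene of this list still called higher, Rasa1 lost its call without FGSC replicate 1 or 2 or SSC replicate 2 or 3, and Cbl lost its call without SSC replicate 1 or 2.

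Kit was higher and Ret lower in FGSC among the receptors that feed the cascade. Of 17 receptors and ligands 10 were tested, 3 higher and 4 lower in FGSC, with a median difference of -0.29, against -0.00282 over all genes. Of all genes 30.9% were higher and 31.5% lower. Of the 10 genes, 2 were undetected in a whole group, so their direction was fixed by the filter. Kit, the receptor of KIT ligand, differed by 3.06 ± 0.16 and Ret, the GDNF receptor, by -4.86 ± 0.09 (limma adjusted p = 1.08e-05 and 4.38e-07), and Ret was detected on 2 of the 3 FGSC arrays. The FGSC level of Ret, 4.95, lay just above background, so the size of its difference was poorly determined. Gdnf itself passed detection on a single FGSC array and on all SSC arrays, with levels of 4.84 in FGSC and 8.91 in SSC. Its FGSC level lay below the lowest signals of detected probes on those arrays (4.86 to 4.89), so no size is given for the difference. Pdgfra, a growth factor receptor of mesenchymal cells, differed by -2.66 ± 0.30. Its FGSC level, 5.11, lay near background and its SSC values were uneven (SD 0.64), so this size was also poorly determined. Igf1r differed by 0.75 ± 0.09, though its other probes were not called at 0.15 and 0.16, and Fgf9 was at least 1.64-fold higher in FGSC and undetected in SSC. Fgf9 was kept through the FGSC arrays alone, so its direction was fixed by the filter. Fgfr1 (0.17 ± 0.11), Fgfr2 (-0.32 ± 0.13) and Egfr (-0.26 ± 0.10) were not called, but another Egfr probe was called at -0.68. With detection at p under 0.01 on all 6 arrays 4 of these genes were left, with Kit and Igf1r called higher and Egfr and Fgfr2 not called, since Ret, Gdnf and Pdgfra did not pass that filter.

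Within the cascade from adaptors to ERK, 9 of 20 genes were tested, 1 higher and 5 lower in FGSC, with a median of -0.28. Of all genes 30.9% were higher and 31.5% lower. Gab1, a docking protein behind receptor kinases, differed by -2.99 ± 0.07 (limma adjusted p = 6.87e-07) and Shc1, an adaptor, by -1.04 ± 0.08. Nras differed by -1.16 ± 0.11 at its brightest probe, while its other probes were not called at 0.14 and 0.17. Araf, a RAF kinase, differed by 0.91 ± 0.11, with other probes at 0.48 and -0.11. Map2k2, which encodes the kinase MEK2, showed -0.07 ± 0.09 and was not called, nor was its second probe at 0.58. Ptpn11 (-0.28 ± 0.36) was not called at its brightest probe, and another probe was called in the opposite direction at 0.54.

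Other transcripts that ERK signalling is known to induce were mostly lower in FGSC. Of 18 such genes 14 were tested, of which 10 were lower and 0 higher (limma, adjusted over all genes), with a median of -1.76, and 0 were higher at an unadjusted p under 0.05 as well. Of all genes 31.5% were lower and 30.9% higher, and 1 of the 14 was undetected in a whole group. Etv5, an ETS factor that GDNF and FGF induce in spermatogonia, had levels of 6.36 ± 0.08 in FGSC and 7.60 ± 0.23 in SSC (SD, n = 3 each) and differed by -1.24 ± 0.13 (adjusted p = 0.000206), with -1.10 at its second probe. The immediate early transcription factor genes Fos and Egr2 differed by -6.22 ± 0.17 and -4.31 ± 0.13. The FGSC level of Egr2, 4.97, lay just above background, so the size of its difference was poorly determined. Zfp36l1, which encodes an RNA-binding protein, differed by -2.91 ± 0.28 at its brightest probe, whose FGSC level of 5.17 lay near background. That size was poorly determined, and another Zfp36l1 probe was called in the opposite direction at 1.45. Egr1 (-1.21 ± 0.55) and Ier3 (0.39 ± 0.18) were not called. With detection at p under 0.01 required on all 6 arrays, 9 genes of this list were left, 5 lower and 1 higher, and the higher one was Zfp36l1, read from that other probe. A count of 1 higher gene was also reached with array weights (Ier3) and without SSC replicate 1 (Phlda1, named here after its value was seen).

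**Figure D4:**
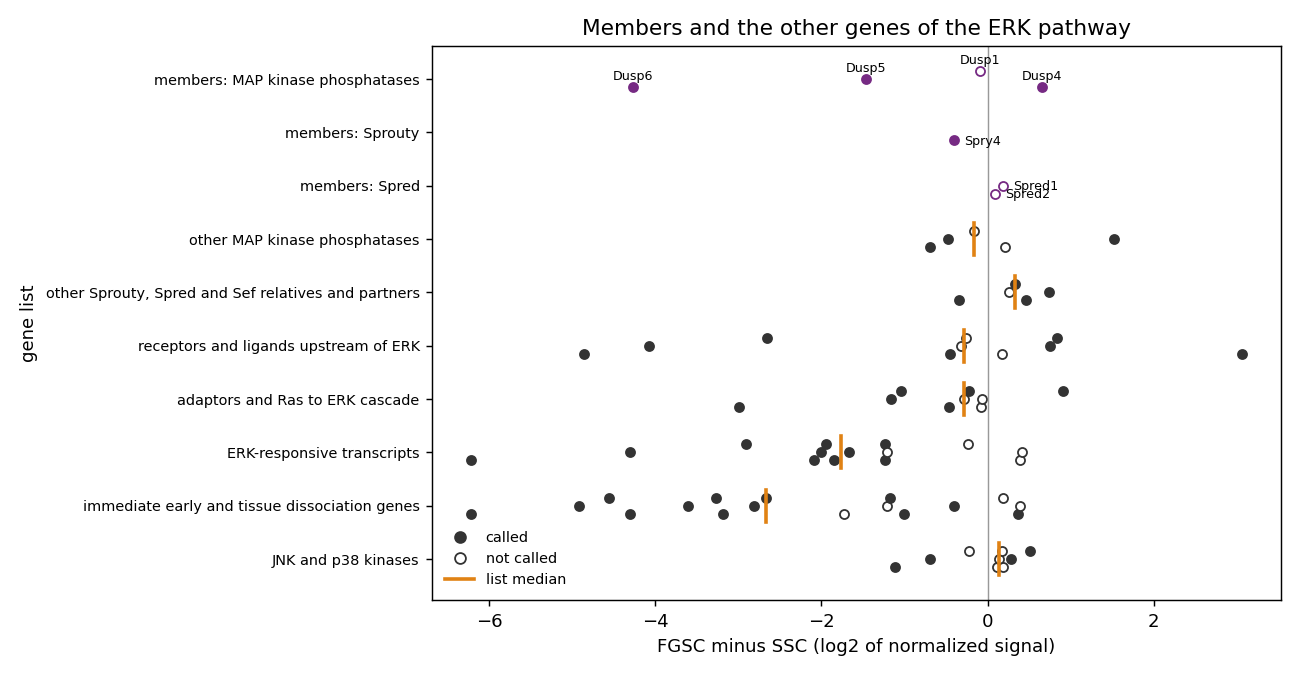
FGSC minus SSC difference (x axis, log2) of each tested gene by list (y axis), with the members in purple and labelled, filled circles called, open circles not called, and an orange bar at the median of each list of other genes. Dusp6 lies at -4.27, Dusp5 at -1.46 and Spry4 at -0.40, while Dusp1, Dusp4, Spred1 and Spred2 lie between -0.09 and 0.65. The median was -1.76 for the ERK-responsive transcripts and -2.67 for the immediate early and dissociation genes. The part of ERK activity in these differences was not tested.

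Dusp1 is also one of the genes known to be induced when tissue is dissociated, and genes of that kind were set beside it. Of 20 immediate early and dissociation genes 17 were tested, 12 lower and 1 higher in FGSC, with a median of -2.67, and 4 of the 17 are also among the ERK-responsive transcripts. Of all genes 31.5% were lower and 30.9% higher. Of the 17 genes, 1 was undetected in a whole group, so its direction was fixed by the filter. Junb and Zfp36 differed by -4.92 ± 0.11 and -4.56 ± 0.14, and Klf6 by 0.37 ± 0.11. Klf6 lost its call without FGSC replicate 1, without SSC replicate 1, with the replicate block and with median scaling. Dnajb1, a heat shock co-chaperone gene, was not called (-1.73 ± 0.74). Dusp1 showed -0.09. The part of cell isolation in the differences of Dusp6, Dusp5 and Spry4 was not tested.

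Genes with a profile over the 6 arrays most like that of Dusp6 or Spry4 were found by the root mean square difference of log2 values, each gene centred on its own mean. The closest to Dusp6 were Arhgef4 (0.060), Gja1 (0.073) and Egr2 (0.106), which differed by -4.22, -4.27 and -4.31. The closest to Spry4 were Grk5 (0.022), Mark3 (0.027) and C030034I22Rik (0.037), at -0.44, -0.35 and -0.43, although another Mark3 probe was called in the opposite direction at 0.43. With 6 arrays in 2 groups this likeness rests mainly on the difference between the groups.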

How the data were processed

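Total RNA of FGSC and SSC was hybridised to 6 arrays, per the labels. The authors deposited, per the file headers, signal intensity values, not normalized between arrays, of 45281 probes, each with a detection p-value. They also deposited processed intensity values, whose scale and centring are not stated; these were linear, had a median of 19.9 on every array and were used as an alternative. The submitters' processing notes name lumi, without version or role. Groups came from the sample titles.

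From the deposited intensities, neqc of limma (version 3.58.1, in R 4.3.3) removed background estimated through the detection p-values, added an offset of 16, equalised quantiles and took log2. The filter kept 18860 probes, 16159 of them with 1 gene symbol, that were detected (p under 0.05) on 3 or more arrays. Of all probes 34885 had 1 symbol, 18 several and 10378 none here. Symbols were updated through RefSeq gene IDs (34807), transcripts (11) or left as they were (67). Signals out of order with their detection p-values (329 probes) or written with 9 or more digits (20) marked 330 probes as irregular, and 0 of them were member probes. FGSC were compared with SSC by lmFit and eBayes with Benjamini-Hochberg adjustment over all genes or all probes. The code was tested on simulated data. An exact permutation test of 3 against 3 arrays cannot pass 0.05, so none was run. The number of arrays limits the precision.

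The members and lists were chosen with earlier results of these data known. Genes named beside the members were up to 3 called genes with the largest rise, up to 3 with the largest fall and up to 2 uncalled genes of each list, a fixed set (Ret, Kit, Fgfr1, Etv5, Fos and Egr1, with an item that is not reported here), and the 3 genes most like Dusp6 and Spry4. The mentions of Gfra1, Uchl1, Sohlh1, Nlrp5 and other markers are from the marker lists.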

Additional observations from a re-analysis of the deposited data

How the results depend on the processing

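The calls of Dusp5 and Dusp6 were kept under all 16 alternatives. Spry4 was also called in the 15 that could include it, but its probe was kept through SSC alone, so this says nothing of its stability. Dusp5 ranged from -1.75 to -1.02, Dusp6 from -4.34 to -2.27 and Spry4 from -1.12 to -0.19, the last with an offset of 50. Dusp4 ranged from 0.28 to 0.85 and lost its call with median scaling alone (0.41, adjusted p = 0.255), where the median of all genes was -0.12 and 39.1% of called genes were higher, in place of 49.5%. Spred1 was called with array weights (0.25, adjusted p = 0.0133) and without FGSC replicate 3 (0.33). Uncalled values changed sign for Spred2 with median scaling (-0.06) and for Dusp1 when an array was left out (-0.21 to 0.03). The cause of these changes was not tested. Probes of members called numbered 5 of 12 with median scaling, against 8 of 12, and 4 of 6 with detection at p under 0.01 on all 6 arrays, which also tested 6896 genes and called 4391 in place of 6627. With the replicate block 5926 genes, 4 member genes and 8 member probes were called. Same-numbered arrays of the groups did not deviate together (correlations of -0.20, -0.05 and -0.22 across genes), so the numbers were not taken as pairs. Signals near background limit Spry4, Spred2 and the dim probes of Dusp4 and Dusp6.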

Other observations

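The kinases of the neighbouring JNK and p38 cascades, whose MAP kinases Dusp1, Dusp4 and Dusp16 can also act on, went both ways. Of 11 such genes 9 were tested, 2 higher and 2 lower in FGSC, with a median difference of 0.14. Of all genes 30.9% were higher and 31.5% lower, so these counts are a description only. Map2k6, an activator of p38, differed by 0.51 ± 0.11 (other probes at 0.21 and 0.24 were not called) and the p38 kinase gene Mapk13 by 0.28 ± 0.09 (limma adjusted p = 0.00581 and 0.0305), while a second Mapk13 probe gave 0.01. Map2k3, another activator of p38, differed by -1.11 ± 0.10 (adjusted p = 0.000135), and Mapk12 was undetected in FGSC and at least 1.55-fold lower there. Mapk12 was kept through the SSC arrays alone, so its direction was fixed by the filter. Mapk14, the main p38 kinase gene, and Mapk9, which encodes JNK2, were not called (0.18 ± 0.10 and -0.23 ± 0.10). With median scaling neither Map2k6 nor Mapk13 was called, and Mapk13 lost its call in 5 of the 6 fits that left out 1 array, all but the one without FGSC replicate 2, and also with the replicate block, with the processed values and with the mean of the kept probes.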
